A study of Mustela putorius furo and Mus musculus with 4 samples.

Results

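Integrins and cadherins were examined in RNA-seq of cultured ferret and mouse astrocytes. The genes were taken by name, as integrin alpha or beta subunit symbols and cadherin symbols that end in a number. Only symbols that occurred in the data of both species were used, and some genes of these families are not reported here. This gave 44 genes of 13373 shared symbols, namely 17 integrin subunits outside the leukocyte group, 5 leukocyte integrins and 22 cadherins. The name rule takes in more than the classical cadherins, since Cdh13, Cdh16, Cdh17, Cdh23 and Cdh26 are not counted among type I or type II cadherins here. Of the 44 genes, 34 had a mean of at least 1 FPKM (fragments per kilobase of exon and per 1000000 fragments mapped) in at least one species and were tested, while 10 stayed below this level.

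Integrins are cell surface receptors built of 1 alpha and 1 beta chain, and each pair binds its own set of matrix or cell surface ligands. Talin and kindlin bind the tail of the beta chain and link it to actin. Classical cadherins bind the same or a related cadherin on the neighboring cell, and their tails hold beta-catenin and p120-catenin, which connect them to alpha-catenin and actin. In the brain, astrocytes are known for N-cadherin at contacts with other cells and for laminin receptors at the endfeet on blood vessels.

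The ferret astrocytes came from the cerebral cortex of postnatal day 1 ferrets, and the mouse astrocytes from that of ICR mice on postnatal day 1 to 3. Both were grown for 14 days as mixed glia in serum, shaken to remove loosely attached cells, and replated in serum. After some days they were moved to a growth medium without serum, in which they stayed for some days before RNA was taken. There were 2 libraries per species. Cells of several mouse pups were pooled in a flask, whereas the cells of a single ferret pup were spread over several flasks. Separate ferret flasks can thus stem from the same pup. Whether the duplicates came from separate cultures or animals is not stated, so the p-values below measure only the spread between these libraries. The only comparison in this design is ferret against mouse, and it cannot be told apart from the genome annotation used for each species and from the culture. Of 9 astrocyte markers, 1 was called higher and 5 lower in ferret astrocytes, and all had a mean above 1 FPKM in both species except Slc1a2, at 0.133 and 0.178 FPKM in the ferret libraries. Summed over the list they stood at 3553.8 and 3654.4 FPKM in ferret and 3104.3 and 3361.1 FPKM in mouse libraries. Most of this sum came from Gfap and Aldoc, neither of them called, so it says little about the other markers. Gfap had 1481.0 and 1522.2 FPKM in ferret and 1428.6 and 1545.6 FPKM in mouse libraries, and Aldoc 1619.2 and 1700.0 FPKM against 916.2 and 1014.7 FPKM. Those called lower were Aqp4, Slc1a3, Slc1a2, Aldh1l1 and Gja1, and S100b was called higher.

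The species were compared by limma over 10204 genes, with FPKM + 1 on the log2 scale, and standard errors (SE) are on that scale. A gene was called at an adjusted p under 0.05 with an absolute log2 difference, ferret minus mouse, above 1. Of all genes tested, 13.1% were called higher and 30.1% lower in ferret astrocytes, 43.2% in either direction. Of the 34 integrins and cadherins tested, 9 were called higher (26.5%) and 14 lower (41.2%), and 11 were not called. Without the leukocyte integrins the counts were 8 higher, 11 lower and 11 not called of 30. The median log2 difference was -0.13 for the 34 genes and -0.35 for all genes tested. That of the integrins and cadherins tested turned to 0.19, 0.16 and 0.25 under 3 other scalings of the libraries, the first of which let 38 pass the filter. The libraries of the species did not overlap for 94.1% of all genes tested, with both ferret libraries above in 35.1% and below in 59.0%, so a lack of overlap sets no gene apart here.

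The beta subunits were led by Itgb1, the partner of most alpha chains. Its level was 156.7 and 143.7 FPKM in ferret and 647.3 and 648.1 FPKM in mouse libraries. Both ferret libraries lay far below both mouse libraries, although Itgb1 was the highest of the integrins examined in either species. This came to a log2 difference of -2.10 (SE 0.063, limma adjusted p = 9.28e-10), or 4.31-fold lower mean FPKM in ferret astrocytes. Itgb8, which pairs with the alpha V chain and takes part in the activation of latent TGF-beta, had 19.0 and 17.3 FPKM in ferret and 20.4 and 20.8 FPKM in mouse libraries. This difference was small (log2 difference -0.18, SE 0.068, adjusted p = 0.0307), and it turned to 0.20, 0.19 and 0.21 under the 3 other scalings. Itgb4, the partner of alpha 6 in hemidesmosomes, had 4.08 and 4.49 FPKM in ferret and 1.26 and 1.14 FPKM in mouse libraries, a log2 difference of 1.26 (SE 0.081, limma adjusted p = 1.97e-07). Itgb6, an epithelial subunit, is listed at 0 in both ferret libraries and stood at 0.0397 and 0.0588 FPKM in the mouse libraries. Among these 4 subunits, Itgb1 accounted for 87.2% and 86.8% of the FPKM in ferret and 96.8% and 96.7% in mouse libraries, and Itgb8 10.6% and 10.4% against 3.05% and 3.11%.

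**Figure D1:**
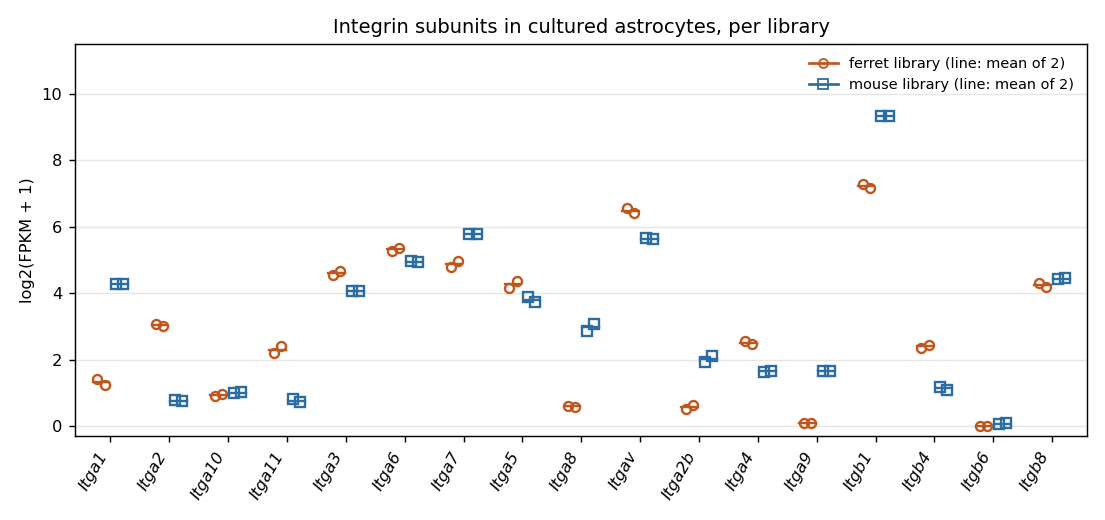
Level of each of the 17 integrin subunits outside the leukocyte group, as log2(FPKM + 1) on the vertical axis, with 1 open symbol per library (circles ferret, squares mouse) and a line at the mean of 2. Itgb1, Itga1 and Itga8 sit higher in the mouse libraries and Itga2, Itga11 and Itgb4 higher in the ferret libraries, while Itga10, Itga6 and Itgb8 lie close together.

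The alpha subunits are taken by ligand, and each class held higher and lower levels. Alpha V, the main receptor chain for vitronectin and other proteins with the RGD motif, was the highest alpha chain in ferret astrocytes. Itgav had 92.9 and 84.1 FPKM in ferret and 49.5 and 48.2 FPKM in mouse libraries. Its log2 difference of 0.84 (SE 0.065, limma adjusted p = 7.93e-07) was under the limit for a call as deposited. It passed the limit at 1.24, 1.23 and 1.19 under the 3 other scalings. The fibronectin receptor chain Itga5 had 17.0 and 19.8 FPKM in ferret and 13.7 and 12.3 FPKM in mouse libraries (log2 difference 0.47, SE 0.085, adjusted p = 4.90e-04). Itga8, a second fibronectin-binding chain known from kidney development, ran the other way, with 0.538 and 0.483 FPKM in ferret and 6.36 and 7.39 FPKM in mouse libraries (log2 difference -2.38, SE 0.087, adjusted p = 3.47e-09). Itga2b, the platelet fibrinogen receptor chain, was also called lower, at 0.431 and 0.558 FPKM against 2.82 and 3.30 FPKM. In this RGD-binding group, no chain was called higher and 2 of 4 were called lower with FPKM as deposited.

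None of the laminin-binding chains was called. Itga6, which pairs with beta 1 or beta 4, had 37.9 and 40.5 FPKM in ferret and 30.2 and 29.8 FPKM in mouse libraries (log2 difference 0.37, SE 0.061, limma adjusted p = 2.38e-04). Itga3 had 22.6 and 24.7 FPKM in ferret and 15.9 and 15.7 FPKM in mouse libraries (log2 difference 0.55, SE 0.066, adjusted p = 2.42e-05). Itga7, best known as the laminin receptor of muscle, had 26.6 and 30.4 FPKM in ferret and 53.5 and 54.3 FPKM in mouse libraries (log2 difference -0.90, SE 0.071, adjusted p = 9.91e-07). Itga7 was the highest alpha chain of mouse astrocytes, while in ferret astrocytes it stood behind Itgav and Itga6.

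The collagen receptor chains were called in both directions, 2 higher and 1 lower of 4. Itga1, which favors collagen of basement membranes, had 1.67 and 1.38 FPKM in ferret and 18.4 and 18.5 FPKM in mouse libraries, a log2 difference of -2.95 (SE 0.080, limma adjusted p = 5.00e-10). Itga2, the platelet collagen receptor chain, had 7.48 and 7.12 FPKM in ferret and 0.716 and 0.677 FPKM in mouse libraries, a log2 difference of 2.29 (SE 0.076, adjusted p = 1.75e-09). Itga11, a receptor chain for fibrillar collagen, followed Itga2, with 3.58 and 4.31 FPKM in ferret and 0.758 and 0.641 FPKM in mouse libraries (log2 difference 1.54). Itga10 differed by less than the test could resolve, at 0.861 and 0.962 FPKM against 1.00 and 1.03 FPKM (log2 difference -0.08, SE 0.077, adjusted p = 0.365), and its sign turned under the other scalings. In mouse astrocytes Itga1 was therefore the leading collagen-binding chain, and in ferret astrocytes it was Itga2. Both genes lie side by side in the mouse, on chromosome 13 of GRCm38 and on the minus strand, Itga2 from 114833081 to 114932100 and Itga1 from 114953096 to 115101964, with 20995 bases between them.

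The 2 chains of the remaining subfamily also parted. Itga4, which binds fibronectin and VCAM, had 4.87 and 4.56 FPKM in ferret and 2.11 and 2.17 FPKM in mouse libraries. Its log2 difference of 0.86 was under the limit and passed it at 1.10 with a pseudocount of 0.1 and at 1.41, 1.16 and 1.27 under the other scalings. Itga9, a tenascin and osteopontin receptor chain, had 0.0655 and 0.0640 FPKM in ferret and 2.19 and 2.16 FPKM in mouse libraries (log2 difference -1.58, SE 0.075, limma adjusted p = 2.15e-08).

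Summed over the 13 alpha subunits outside the leukocyte group, the level was 216.5 and 218.9 FPKM in ferret and 197.2 and 196.2 FPKM in mouse libraries. Divided by Itgb1 of the same library, the sum was 1.38 and 1.52 in ferret and 0.305 and 0.303 in mouse libraries. This quotient is not altered by a common factor for a library, but it rests on the gene models of each species. The alpha sums were close, so the quotient mostly restates the difference in Itgb1. It is no measure of paired chains, since Itgav and Itga6 in the sum also pair with other beta chains. The share of Itgav in the alpha sum was 40.7% ± 3.17 (SD, n = 2) for ferret against 24.8% ± 0.384 (SD, n = 2) for mouse astrocytes, and that of Itga7 was 13.1% ± 1.13 (SD, n = 2) against 27.4% ± 0.359 (SD, n = 2). Itga1 took 0.771% and 0.631% in ferret and 9.32% and 9.44% in mouse libraries. These shares were not tested.

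**Figure D2:**
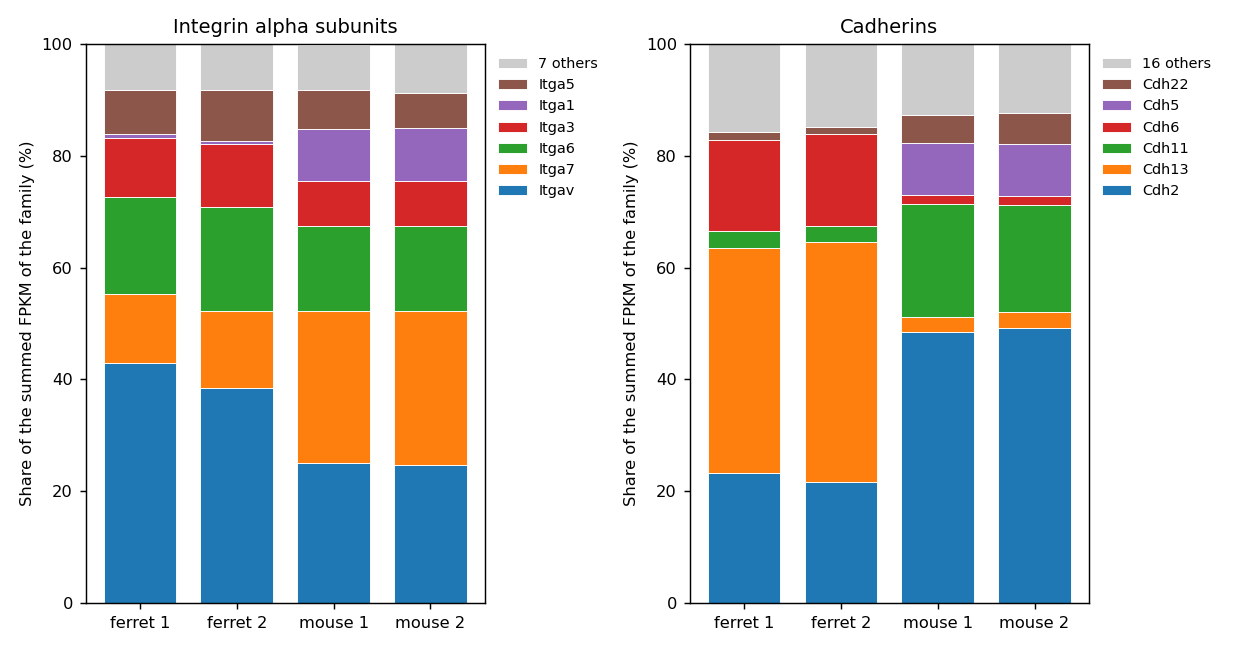
Share of each gene in the summed FPKM of its family, in percent of the 13 alpha subunits (left) and of the 22 cadherins (right), with 1 stacked bar per library. Genes that reach 5% in a library have their own color and the others are pooled in gray; Itgav is the largest part of the ferret alpha bars, and Cdh13 takes the place of Cdh2 as the largest part in the ferret cadherin bars.

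The leukocyte integrins were set apart, since blood-derived cells and microglia carry them. Itgb2, the beta chain that pairs with Itgam and Itgal, had 0.137 and 0.128 FPKM in ferret and 20.7 and 20.0 FPKM in mouse libraries. For Itgb2 the log2 difference was -4.23 (SE 0.074, limma adjusted p = 4.04e-11). Its partner Itgam, the alpha chain of the complement receptor of microglia and macrophages, is listed at 0 in 1 ferret library and stood at 0.00748 FPKM in the other, against 7.66 and 7.39 FPKM in the mouse libraries (log2 difference -3.09, SE 0.075, adjusted p = 2.57e-10). Itgal, the alpha chain that binds ICAM on other cells, had 0.00603 and 0.0212 FPKM in ferret and 3.36 and 3.02 FPKM in mouse libraries (log2 difference -2.05). All 3 were called lower in ferret astrocytes. In bulk RNA, fewer cells of a type and less RNA per cell cannot be told apart.

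Microglial markers moved with these genes. Of a list of 17, 16 were shared, and all 16 were called lower in ferret astrocytes. The list summed to 13.1 and 11.7 FPKM in ferret and 950.3 and 928.4 FPKM in mouse libraries. Cx3cr1 is listed at 0 in both ferret libraries, Aif1 stood at 0.0495 and 0.0465 FPKM there, and Tmem119 at 4.01 and 3.67 FPKM. The part of these cells in the integrin differences was not tested.

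Itgae ran against the other leukocyte integrins. It encodes the alpha chain of a receptor for E-cadherin on lymphocytes, and had 2.69 and 2.73 FPKM in ferret and 0.0723 and 0.0469 FPKM in mouse libraries (log2 difference 1.81, SE 0.076, limma adjusted p = 8.35e-09). Itgb7, the only beta chain it is known to pair with, stood at 0.0260 and 0.137 FPKM in ferret and 0.105 and 0.267 FPKM in mouse libraries, which overlapped. Itgae accounted for 94.1% and 90.3% of the FPKM of the 5 leukocyte integrins in ferret libraries, where the whole group came to 2.86 and 3.03 FPKM, against 31.9 and 30.7 FPKM in the mouse libraries.

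**Figure D3:**
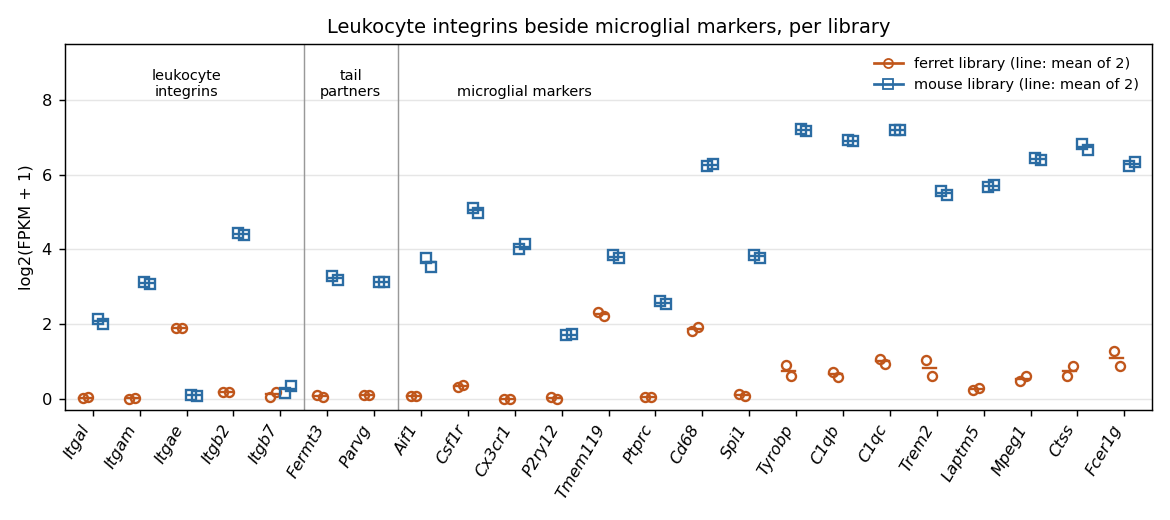
Level of the 5 leukocyte integrins, of Fermt3 and Parvg, and of the 16 shared microglial markers, as log2(FPKM + 1) on the vertical axis, with 1 open symbol per library (circles ferret, squares mouse) and a line at the mean of 2. All genes but Itgae and Itgb7 lie higher in both mouse libraries.

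Among the cadherins, the leading gene was another one in each species. Cdh13 encodes T-cadherin, which is held in the membrane by a lipid anchor and binds adiponectin. It had 85.6 and 95.1 FPKM in ferret and 6.36 and 6.97 FPKM in mouse libraries, a log2 difference of 3.57 (SE 0.073, limma adjusted p = 9.58e-11). It was the highest cadherin of ferret astrocytes and the sixth of mouse astrocytes. Cdh2, which encodes N-cadherin, had 49.3 and 48.3 FPKM in ferret and 114.4 and 118.8 FPKM in mouse libraries. Its log2 difference of -1.24 (SE 0.057, adjusted p = 1.63e-08) was called as deposited. Under the 3 other scalings it was -0.86, -0.85 and -0.89, still lower in ferret astrocytes but within the limit. The share of Cdh13 in the cadherin sum was 41.5% ± 1.78 (SD, n = 2) for ferret against 2.79% ± 0.138 (SD, n = 2) for mouse astrocytes, and that of Cdh2 was 22.5% ± 1.05 (SD, n = 2) against 48.7% ± 0.544 (SD, n = 2). The sums themselves were close, at 212.5 and 222.1 FPKM in ferret and 236.5 and 241.9 FPKM in mouse libraries.

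**Figure D4:**
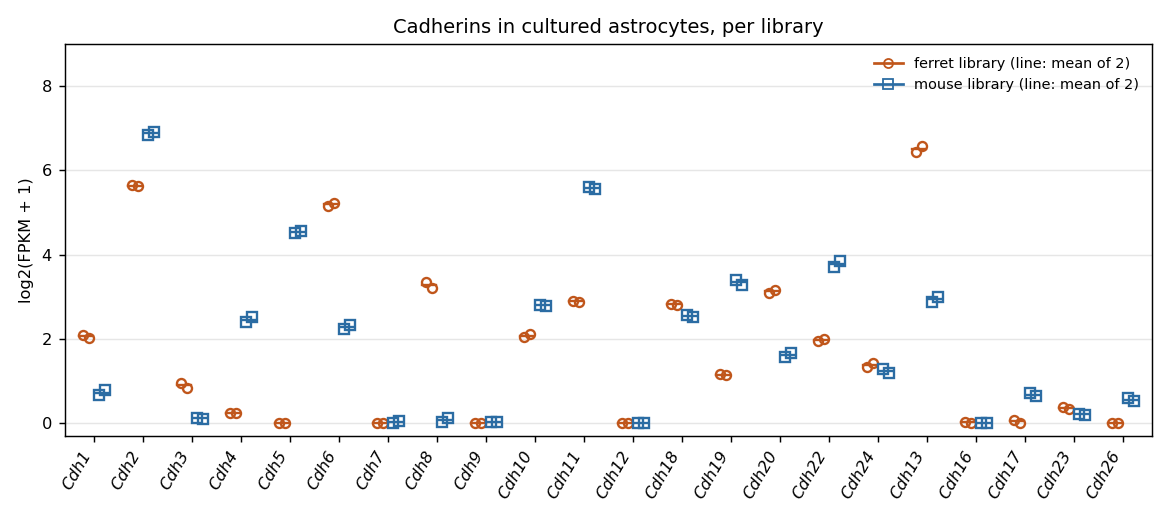
Level of each of the 22 cadherins, as log2(FPKM + 1) on the vertical axis, with 1 open symbol per library (circles ferret, squares mouse) and a line at the mean of 2. Cdh13, Cdh6, Cdh8 and Cdh20 lie higher in the ferret libraries, and Cdh2, Cdh11, Cdh5, Cdh19, Cdh22 and Cdh4 in the mouse libraries.

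The other type I cadherins were low. Cdh1, or E-cadherin, the cadherin of epithelia, had 3.28 and 3.05 FPKM in ferret and 0.582 and 0.712 FPKM in mouse libraries (log2 difference 1.34, limma adjusted p = 1.31e-07). P-cadherin, Cdh3, stayed below the level for the test, at 0.931 and 0.789 FPKM in ferret and 0.0840 and 0.0759 FPKM in mouse libraries. R-cadherin, Cdh4, had 0.174 and 0.187 FPKM in ferret and 4.24 and 4.69 FPKM in mouse libraries (log2 difference -2.21, adjusted p = 3.21e-09). Hence each of the 3 type I cadherins tested was called with FPKM as deposited, 1 higher and 2 lower. Of all genes tested, 43.2% were called in either direction, and Cdh2 lost its call under the 3 other scalings. Of 7 epithelial and choroid plexus markers, 5 were shared. They summed to 0.223 and 0.126 FPKM in ferret and 4.06 and 3.71 FPKM in mouse libraries, of which Folr1, listed at 0 in both ferret libraries and called lower, made up 3.80 and 3.55 FPKM. Epcam stood at 0.00991 and 0 FPKM in ferret libraries.

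Type II cadherins, which are known for their patchwork expression in the nervous system, held differences in both directions. Cdh6 had 34.6 and 36.6 FPKM in ferret and 3.71 and 4.02 FPKM in mouse libraries, a log2 difference of 2.91 (SE 0.070, limma adjusted p = 2.22e-10). Cdh8 had 9.25 and 8.27 FPKM in ferret and 0.0115 and 0.0866 FPKM in mouse libraries (log2 difference 3.22, SE 0.085, adjusted p = 4.29e-10). Cdh20 had 7.53 and 7.97 FPKM in ferret and 1.96 and 2.17 FPKM in mouse libraries (log2 difference 1.51, SE 0.078, adjusted p = 3.89e-08). These 3 were the type II cadherins called higher in ferret astrocytes.

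Cdh11, known from bone and other connective tissue cells, was the second cadherin of mouse astrocytes. It had 6.51 and 6.35 FPKM in ferret and 48.0 and 46.4 FPKM in mouse libraries, a log2 difference of -2.70 (SE 0.062, limma adjusted p = 1.77e-10). Of 12 meningeal fibroblast markers, 10 were shared and 9 of these were called lower in ferret astrocytes, with sums of 130.2 and 115.4 FPKM in ferret and 1648.8 and 1632.3 FPKM in mouse libraries. None of the 10 is listed at 0 in both libraries of a species. Pdgfra was not called and ran the other way. It had 3.07 and 3.23 FPKM in ferret and 1.64 and 1.23 FPKM in mouse libraries. Of the mouse sums, Serpinf1 made up 629.8 and 653.2 FPKM and Col3a1 401.6 and 375.3 FPKM. The part of meningeal fibroblasts in the level of Cdh11, or of Itga1 and Itga8, was not tested.

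Cdh5, or VE-cadherin, is the cadherin of blood vessel endothelium. It is listed at 0 in both ferret libraries and had 22.0 and 22.5 FPKM in the mouse libraries (log2 difference -4.54, SE 0.073, limma adjusted p = 2.98e-11). The size of this difference depends on the pseudocount, since the ferret values are 0, and was -7.80 with a pseudocount of 0.1. Of 10 other endothelial markers, all shared, 8 had a mean under 1 FPKM in mouse astrocytes and all 10 in ferret astrocytes. They summed to 7.06 and 6.98 FPKM in the mouse and 0.833 and 0.889 FPKM in the ferret libraries. Cldn5 is listed at 0 in both mouse libraries, and Pecam1 stood at 0.0407 and 0.0312 FPKM there. Only Tek and Esam passed the level for the test, and both were called lower in ferret astrocytes, Tek at 0 in both ferret libraries against 1.34 FPKM in both mouse libraries, and Esam at 0 and 0.0681 FPKM against 2.99 and 3.10 FPKM. The part of endothelial cells in the level of Cdh5 was not tested.

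Cdh19, a cadherin known from the Schwann cell lineage, had 1.23 and 1.20 FPKM in ferret and 9.61 and 8.69 FPKM in mouse libraries (log2 difference -2.19, SE 0.079, limma adjusted p = 3.15e-09). Schwann lineage markers went the other way. Of 7 listed genes 6 were shared and 5 tested, of which 3 were called higher in ferret astrocytes, while Prx and Egr2 were not called. The 6 genes summed to 57.3 and 66.9 FPKM in ferret and 3.56 and 3.37 FPKM in mouse libraries. Sox10, which oligodendrocytes also express, had 26.3 and 30.9 FPKM in ferret and 0.231 and 0.304 FPKM in mouse libraries. Itgb4, which Schwann cells are known to carry, was called higher in ferret astrocytes, and its partner Itga6 stood higher but was not called. Itgb1 and Itga7 ran the other way, with log2 differences of -2.10 and -0.90, and Itgb1 was called lower. The part of Schwann lineage cells in these values was not tested.

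Cdh22 was the last type II cadherin called, at 2.88 and 2.98 FPKM in ferret and 12.0 and 13.5 FPKM in mouse libraries (log2 difference -1.81, SE 0.079, limma adjusted p = 1.18e-08). The others tested were not called. Cdh10 had 3.11 and 3.32 FPKM in ferret and 5.94 and 5.92 FPKM in mouse libraries (log2 difference -0.72, SE 0.074, adjusted p = 7.82e-06). Cdh18 had 6.13 and 6.04 FPKM in ferret and 4.91 and 4.78 FPKM in mouse libraries (log2 difference 0.28, SE 0.072, adjusted p = 0.00455). Cdh24 had 1.50 and 1.70 FPKM in ferret and 1.43 and 1.29 FPKM in mouse libraries, a difference that did not pass the test (log2 difference 0.14, adjusted p = 0.137). Cdh7, Cdh9 and Cdh12 reached at most 0.0405, 0.0270 and 0.00662 FPKM in a library. Of the cadherins outside the classical class, Cdh17, Cdh26 and Cdh23 reached at most 0.635, 0.517 and 0.306 FPKM in a library, and Cdh16, the cadherin of kidney, 0.0164 FPKM.

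**Figure D5:**
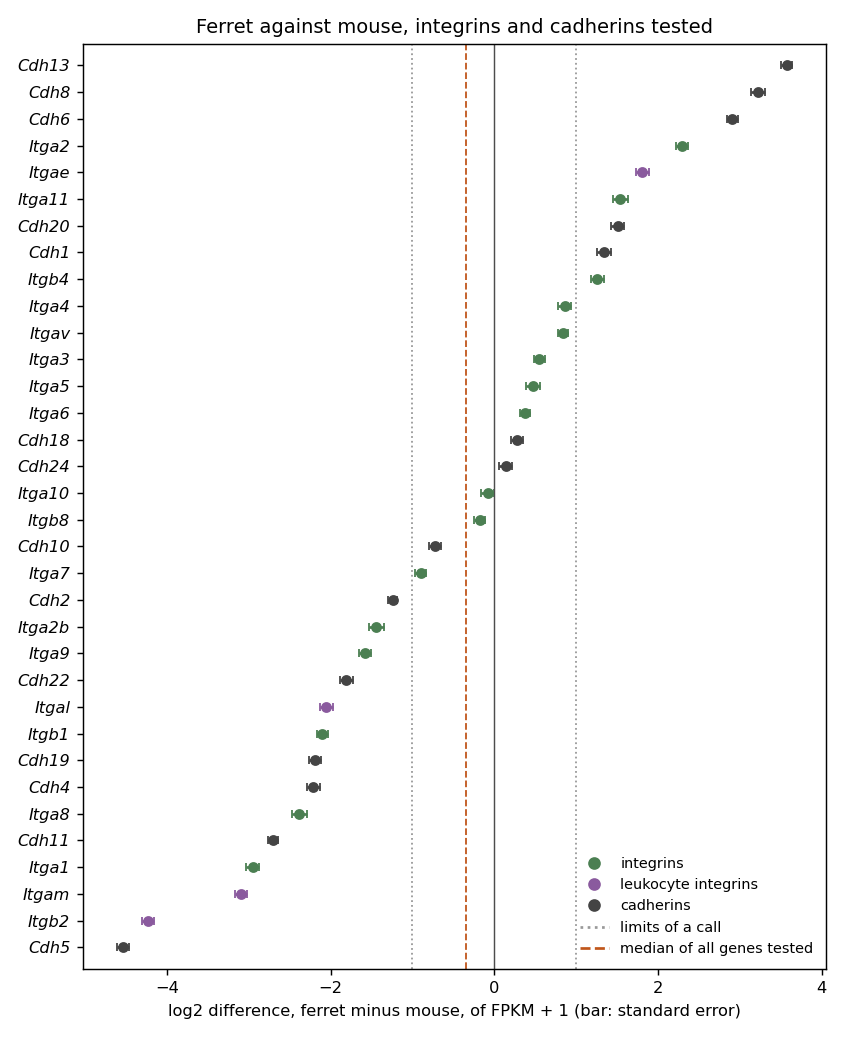
Log2 difference, ferret minus mouse, of FPKM + 1 on the horizontal axis for the 34 genes tested, with bars for the standard error and 1 row per gene. Dotted lines mark the limits of a call at -1 and 1 and the dashed line the median of all genes tested at -0.35; the genes run from Cdh5 at -4.54 to Cdh13 at 3.57.

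The genes can also be ordered by level within a species. In ferret astrocytes the cadherins ran from Cdh13 over Cdh2 and Cdh6 to Cdh8 and Cdh20, and in mouse astrocytes from Cdh2 over Cdh11 and Cdh5 to Cdh22 and Cdh19, with the duplicates of each apart from those of the next. Neighbors whose duplicates overlapped were Itga5 and Itgb8, Itgb4 and Itga11, Itga8 and Itga2b, and Cdh10 and Cdh1 in ferret astrocytes. In mouse astrocytes they were Itga9 and Itga4, Itga11 and Itga2, and Cdh1 and Cdh17. Pairs under 0.1 FPKM also overlapped in both species.

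Several of these genes are neighbors on mouse chromosomes. On chromosome 8 of GRCm38, 8 of the 44 genes are found. Cdh8 (from 99024471 to 99416471, minus strand), called higher in ferret astrocytes, is followed after 3.22 Mb by Cdh11 (from 102632095 to 102785642, minus strand) and after a further 1.32 Mb by Cdh5 (from 104101625 to 104144511, plus strand), both called lower. Cdh3 and Cdh1 lie 46.1 kb apart on that chromosome, where Cdh1 was called higher and Cdh3 was not tested. Cdh13, from 118283733 to 119324921 on the plus strand, lies farther along, before Itgb1. On chromosome 1, Cdh20 and Cdh19 flank Cdh7 and were called in opposite directions, with Cdh7 at 0 to 0.0405 FPKM between them. On chromosome 7, Itgal and Itgam lie 727.5 kb apart and were both called lower.

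The partners of these receptors inside the cell were read from a list of their own. Of 36 shared genes for catenins and for integrin tail binders and focal adhesion proteins, 35 were tested, of which 2 were called higher (5.71%) and 12 lower (34.3%) in ferret astrocytes, beside 13.1% and 30.1% of all genes. Their median log2 difference was -0.63. Ilk, the pseudokinase at the tail of beta 1, had 28.3 and 29.6 FPKM in ferret and 132.3 and 140.2 FPKM in mouse libraries, a log2 difference of -2.20 (SE 0.060, limma adjusted p = 5.31e-10). Itgb1bp1, which binds the beta 1 tail in competition with talin, had 6.15 and 5.77 FPKM in ferret and 30.8 and 30.9 FPKM in mouse libraries (log2 difference -2.19). Both were called lower, as was Itgb1.

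The talins and the kindlin Fermt2 were not called. Tln1 had 29.7 and 30.9 FPKM in ferret and 45.9 and 44.4 FPKM in mouse libraries (log2 difference -0.56), and Fermt2, the kindlin of most adherent cells, 32.0 and 28.7 FPKM against 47.3 and 47.8 FPKM (log2 difference -0.63). Fermt3 and Parvg, the kindlin and parvin of blood cells, were called lower like the leukocyte integrins, with log2 differences of -3.15 and -3.03. Fermt3 had 0.0712 and 0.0334 FPKM in ferret and 8.70 and 8.04 FPKM in mouse libraries. The other genes called lower were Tns1 (log2 difference -2.20), Ptk2b (-1.60), Sharpin (-1.48), Kank2 (-1.41), Ctnna2 (-1.31), Tns2 (-1.23), Zyx (-1.03) and Actn1 (-1.01). Of these, Zyx, Tns2 and Actn1 lost the call under all 3 other scalings, Ctnna2 under 2 of them, and Actn1 also without ferret replicate 1, at -0.96.

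The partners called higher were Lpxn, a relative of paxillin, at 16.1 and 16.8 FPKM in ferret and 5.81 and 5.89 FPKM in mouse libraries (log2 difference 1.35), and Parvb, at 13.7 and 14.6 FPKM against 6.02 and 6.62 FPKM (log2 difference 1.05). Without mouse replicate 1 the difference of Parvb was 0.99, which left 1 partner called higher. Ctnnb1, which encodes beta-catenin, was the highest partner in ferret astrocytes and stood at 522.2 and 520.3 FPKM there and at 303.1 and 303.8 FPKM in mouse libraries. Its log2 difference of 0.78 (SE 0.057, limma adjusted p = 5.56e-07) was within the limit as deposited and 1.17, 1.17 and 1.04 under the other scalings. Alpha-catenin, Ctnna1, had 79.3 and 77.1 FPKM in ferret and 111.6 and 116.0 FPKM in mouse libraries (log2 difference -0.53), and p120-catenin, Ctnnd1, 46.8 and 47.8 FPKM against 59.0 and 58.5 FPKM (log2 difference -0.31, which turned to between 0.04 and 0.08 under the other scalings). Of the remaining abundant partners, Flna had a log2 difference of -0.85, Actn4 of -0.34 and Parva of -0.19, and none of these 3 was called. Under the other scalings Parva turned to between 0.17 and 0.20, and Actn4 to between 0.00 and 0.05.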

How the data were processed

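Per the labels and the methods of the study, the libraries were polyA-selected and stranded. The authors aligned paired-end reads with STAR 2.7.0f to the Ensembl genome of each species (GRCm38 for the mouse). They deposited FPKM values from Cufflinks 2.2.1 by gene for each library, and a gene symbol could have several rows. The deposited FPKM values hold no counts, and read counts and gene lengths that the study lists in its supplement were not used here. Steps between low values give an FPKM ratio of 0.853 for ferret replicate 1 over replicate 2 and 1.20 for mouse. Symbols were matched in upper case. Of the shared symbols, 7 in the ferret and 13 in the mouse had several values, none of them an integrin, cadherin or partner named here, and the highest was used. Differences were fitted in R 4.3.3 with limma 3.58.1 (moderated by a trended prior, with Benjamini-Hochberg adjustment over 10204 genes with a mean of at least 1 FPKM in a species) on log2(FPKM + 1), which understates changes of low genes. The fit was run on simulated data with the same noise for every gene and few genes changed. That run checks the code only, and not how well the fit suits these data. Every integrin and cadherin examined is named with its level or its highest level in a library. SE and adjusted p are given for those with a mean of at least 5 FPKM in a species. Of the partners, those called and those with a mean of at least 100 FPKM in a species are named. The statistics of Itga9, Itga10, Itga11, Itga2b, Itga4, Itgb4, Itgal, Itgae, Cdh1, Cdh4 and Cdh24, and the partners Tln1, Fermt2 and Ctnnd1, were added after their values were seen. The genes, lists and alternatives were chosen with earlier results of these data known. Alternatives were a pseudocount of 0.1, no filter, FPKM rescaled to a sum of 1000000 or to the mean sum over shared symbols, quantile normalization (the 3 other scalings), a replicate block, summed values of a symbol and each library left out. Mouse positions are those of GENCODE on GRCm38, in a release other than that of the authors. Some genes of these families and of the marker lists are not reported here, and a ferret genome, protein sequences and promoters were not used here.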

Additional observations from a re-analysis of the deposited data

How the results depend on the processing

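The scaling between the species moved the counts of calls, while the pseudocount moved the size of differences of genes near 0 in a species, such as Cdh5 (-4.54 to -7.80), Itgam (-3.09 to -6.20) and Cdh8 (3.22 to 5.94). The median log2 difference of all genes tested was -0.35 as deposited, -0.01 with FPKM rescaled to a sum of 1000000, 0.00 with the mean library sum and 0.05 after quantile normalization, and that of the integrins and cadherins tested -0.13 as deposited and 0.19, 0.16 and 0.25 under these scalings. Itgb8 turned from -0.18 to 0.20, 0.19 and 0.21 under these scalings. Integrins and cadherins called higher in ferret astrocytes numbered 9 as deposited and 12, 11 and 11 under the scalings, and those called lower 14 against 15, 13 and 13. Of the 23 calls, 22 were kept under each of them, Cdh2 being the exception. The sum of 1000000 also raised values over the fixed filter of 1 FPKM, so that 38 rather than 34 genes were tested. Cdh3 (called higher) and Cdh17 and Cdh26 (called lower) entered the counts there in this way. With a pseudocount of 0.1, Itga4 was called in addition, which gave 10 higher. Partners called higher numbered 2 as deposited and 4 under each of the 3 scalings, since Ctnnb1 and Lims2 passed the limit, and partners called lower 12 against 9, 8 and 8. With single libraries left out, the partners called higher numbered 1 to 2 and the partners called lower 11 to 13, and the 23 calls of integrins and cadherins stayed past the threshold, with the lone library of a species assumed to vary like the duplicates of the other. Same-numbered libraries of the species did not deviate together (correlation of deviations across genes 0.00995), which cannot show whether the cultures were run in pairs. With replicate as a block the counts were again 9 higher and 14 lower for integrins and cadherins and 2 higher and 12 lower for partners. Read counts were not used here, so levels near 0 are given as listed and carry no interval.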

Other observations

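A few symbols of the same families were found in 1 species and entered no comparison. In mouse astrocytes Itgb3, the beta chain that pairs with alpha V and with the platelet chain Itga2b, had 0.550 and 0.515 FPKM, Itgax 0.323 FPKM in both libraries, and Itgad 0.0200 and 0.00668 FPKM. In ferret astrocytes Cdh15, the cadherin of muscle, had 0.149 and 0.315 FPKM.

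Markers of further cell types were also read, and their part in the values above was not tested. Oligodendrocyte lineage markers share Sox10 with the Schwann list. They summed to 167.3 and 186.1 FPKM in ferret and 67.5 and 67.8 FPKM in mouse libraries. Of these sums, Cnp, which was not called, made up 79.9 and 92.0 FPKM in ferret and 45.6 and 47.7 FPKM in mouse libraries. Of 8 tested genes, 4 were called higher in ferret astrocytes and none was called lower. Olig2 and Cspg4 were not called but lay lower in both ferret libraries. Olig2 had 4.92 and 5.18 FPKM against 9.62 and 9.80 FPKM, and Cspg4 1.04 and 1.16 FPKM against 2.00 and 1.81 FPKM. Neuronal markers summed to 7.91 and 8.02 FPKM in ferret and 2.07 and 2.33 FPKM in mouse libraries. Of 4 pericyte genes tested, 1 was called higher and 2 lower. Kcnj8 was called higher in ferret astrocytes, at 11.7 and 11.3 FPKM against 0.0139 and 0.0232 FPKM, and Pdgfrb lower, at 4.57 and 4.38 FPKM against 24.5 and 22.7 FPKM, as was Anpep, with a log2 difference of -2.15.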
